A study of Macrobrachium nipponense with 6 samples.

Results

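The miRNAs miR-279 and miR-996, which share a seed, were followed through 39 array probes, of 2546 miRNA probes in all, whose name after the species prefix is miR-279 or miR-996, with or without a letter, arm or variant suffix. Of these, 32 are miR-279 probes and 7 are miR-996 probes. The samples were from Macrobrachium nipponense, the oriental river prawn, a crustacean of fresh water. Prawns in the normoxia group stayed for 24 h in water with 6.5 ± 0.2 mg O2 per L. The hypoxia group had nitrogen bubbled through its tanks to reach 2.0 ± 0.1 mg O2 per L, for 24 h. Each group had 3 samples, every sample combined RNA of gill, hepatopancreas, muscle and hemocytes, and 1 single-colour array was hybridised per sample. Nothing in the labels tells whether the 3 samples of a group are separate animals; the p-values below cover only the spread among these samples, which may be technical. In such a pool, fewer cells of a type and less of a miRNA per cell cannot be told apart.

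A miRNA finds its target messages mainly through its seed, bases 2 to 8 from the 5′ end, so miRNAs that share a seed can act on overlapping sets of messages. In Drosophila, miR-279 and miR-996 share their seed and are made from neighbouring genes. There they hold back the formation of carbon dioxide-sensing neurons, and miR-279 also acts on JAK/STAT signalling in migrating follicle cells and in the rhythm of daily activity. For prawn tissues under low oxygen the labels give no role.

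The sequences below are the probe targets as the array files give them, 5′ to 3′, with the seed in capitals. They are shown because many of the probes compared below differ by few bases or at their 3′ ends. The prefixes are those of other arthropods: bmo for the silkworm, hme for a Heliconius butterfly, api for the pea aphid, tca for the flour beetle, mse for the tobacco hornworm, tur for a spider mite, aga for a malaria mosquito and ame for the honeybee. Genome positions were not analysed here.
bmo-miR-279a: uGACUAGAuccacacucau
api-miR-279a: uGACUAGAuccacacucaucc
hme-miR-279a: uGACUAGAuccacacucaucca
bmo-miR-279a_R+3_1ss17CT: uGACUAGAuccacacuuaucca
tca-miR-279b-3p_R+2_1ss17CT: uGACUAGAuccacacuuauccaaa
tur-miR-279-3p: uGACUAGAuccacauucaucca
bmo-miR-279c-3p: uGACUAGAuccauacucgucug
mse-miR-279d: uGACUAGAuccauacucgucugc
tca-miR-279d-3p: uGACUAGAuccauacucgucuauag
tca-miR-279d-3p_R-4_1ss18GT: uGACUAGAuccauacucuucu
aga-miR-996: uGACUAGAuuacaugcucgucu
ame-miR-996: uGACUAGAuacauacucgucu
bmo-miR-279e: uGACUAGCgauacacuccggcu

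Positions are counted from 1 at the 5′ end, with the base of the probe named first written first. The 3 unmodified miR-279a targets are 1 sequence at lengths of 19, 21 and 22 nt. The variant bmo-miR-279a_R+3_1ss17CT differs from hme-miR-279a by C17U alone, at the same 22 nt. Beside bmo-miR-279a it carries C17U and 3 more bases at the 3′ end, which is what its suffix reads as. The variant named after tca-miR-279b-3p holds the same 22 bases and 2 more. The variant tca-miR-279d-3p_R-4_1ss18GT differs from tca-miR-279d-3p by G18U and is 4 nt shorter. The target of bmo-miR-279c-3p differs from hme-miR-279a by 4 bases outside the seed (C13U A18G C21U A22G), and mse-miR-279d is the same sequence with 1 more base. The seed GACUAGA was present in 26 of the 39 targets, 20 of miR-279 and 6 of miR-996. The 13 without it were the 12 probes named for the 5p arm, the opposite strand of the precursor, and bmo-miR-279e, whose seed ends in a different base.

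A probe counted as detected on an array when its spot exceeded the local background by over 3 times the standard deviation of empty spots. Of the 39 probes, 8 were detected on all 6 arrays and dme-miR-279-3p on 5. No other probe passed on more than 2 arrays: 2 passed on 2 arrays, 12 on 1 and 16 on none. The 9 measurable probes, 23.1% of the family where 13.3% of all probes on the array were, were all miR-279 probes with the family seed. By letter, 4 of 5 miR-279a probes were measurable, 1 of 7 miR-279b, 1 of 5 miR-279c, 2 of 6 miR-279d, 0 of 3 miR-279e and 1 of 6 without a letter.

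**Figure D1:**
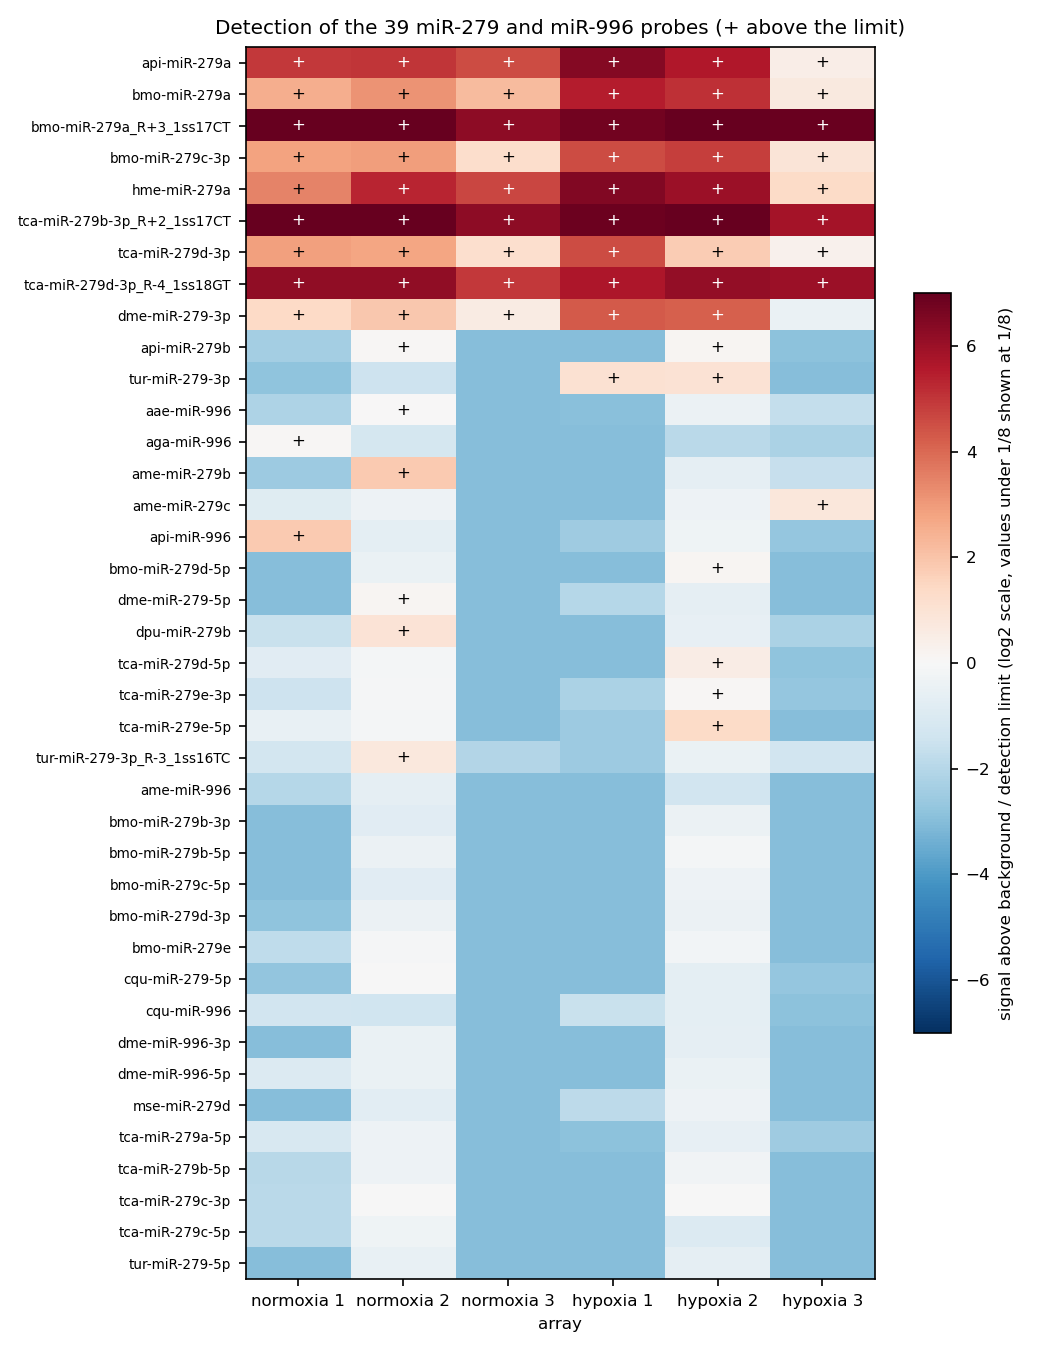
Signal above background over the detection limit (colour, log2 scale) for the 39 miR-279 and miR-996 probes (rows) on 6 arrays (columns), with a plus sign where the limit was passed. The 9 probes in the top rows were detected on 5 or 6 arrays each, and the 30 below them on 2 arrays or fewer.

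The miR-996 probes gave almost no signal. Of the 7, 4 were detected on no array and 3 on a single normoxia array each. The strongest reading above background was 126, for api-miR-996 on normoxia 1, where the limit was 35.6. It read from 2.58 to 42.4 on the other 5 arrays, each below its limit. A difference in miR-996 between oxygen levels was not measurable on these arrays. The targets are those of other arthropods, and their match to a prawn miR-996 was not checked. A low level and a poor match cannot be told apart.

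The probes named 5p read near background as well. Their targets are also those of other arthropods, so a low level and a poor match to the prawn sequence cannot be told apart. Of 12 probes named 5p, 8 were detected on no array and 4 on 1 array each, and none entered the test. The highest reading among them was 74.0 above background, for dme-miR-279-5p on normoxia 2, where the limit was 67.6. The probe tca-miR-279e-5p reached 69.9 on hypoxia 2, against a limit of 27.8. Its 3p partner, tca-miR-279e-3p, read 28.9 on the same array, just past the same limit.

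Among the other untested probes, tur-miR-279-3p was detected on hypoxia 1 and hypoxia 2 alone, at 151 and 55.5 above background. Its target differs from hme-miR-279a by C15U. Its variant tur-miR-279-3p_R-3_1ss16TC was detected on normoxia 2 alone, at 111. The probe api-miR-279b passed on normoxia 2 and hypoxia 2, at 70.5 and 30.4. The highest untested reading was ame-miR-279b at 243 on normoxia 2, and it was below the limit on the other 5 arrays. The probe mse-miR-279d was detected on no array and read from -9.12 to 41.1, while bmo-miR-279c-3p, shorter by 1 base at the 3′ end, read from 145 to 1763 and was detected on all 6.

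Across the whole array, 342 to 1001 probes per array were detected, and the limit ran from 27.8 to 94.5 above background. A probe was tested where all 3 arrays of either group detected it, which left 339 probes, and the number of arrays limits the precision. Of the 39 family members, 9 passed this filter. Between 9 and 15 of them were detected per array. Of the muscle markers, 3 of 9 miR-1 probes and 2 of 6 miR-133 probes entered the test, beside 13.3% of all probes on the array. On all 6 arrays, 3 miR-1 probes and 1 miR-133 probe were detected. Of the nervous system markers, 0 of 8 miR-124 probes entered the test, beside 3 of 8 for miR-7 and 12 of 39 for miR-9. These counts do not set muscle apart from nervous tissue, which is not among the labelled tissues. Gill, hepatopancreas and hemocytes had no marker to check.

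The comparison between groups asked whether 24 h of low oxygen went with another level of the family. None was called: 0 of the 9 tested probes had an adjusted p under 0.05 (limma, Benjamini-Hochberg over 339 probes), where 0% of all tested probes passed. At an unadjusted p under 0.05 there were 0 of 9, beside 4.42% of all tested probes. The adjusted p of the members ran from 0.870 to 0.949. Of the 9, 4 lay above 0 and 5 below, beside 41.9% above and 58.1% below among all tested probes. The median change was -0.10 (log2, hypoxia minus normoxia), and over all 339 probes it was -0.09. The median of the 9 was 0.02 with 75th percentile scaling, 0.09 with cyclic loess and 0.03 in the authors' values, so its sign depended on the scaling.

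**Figure D2:**
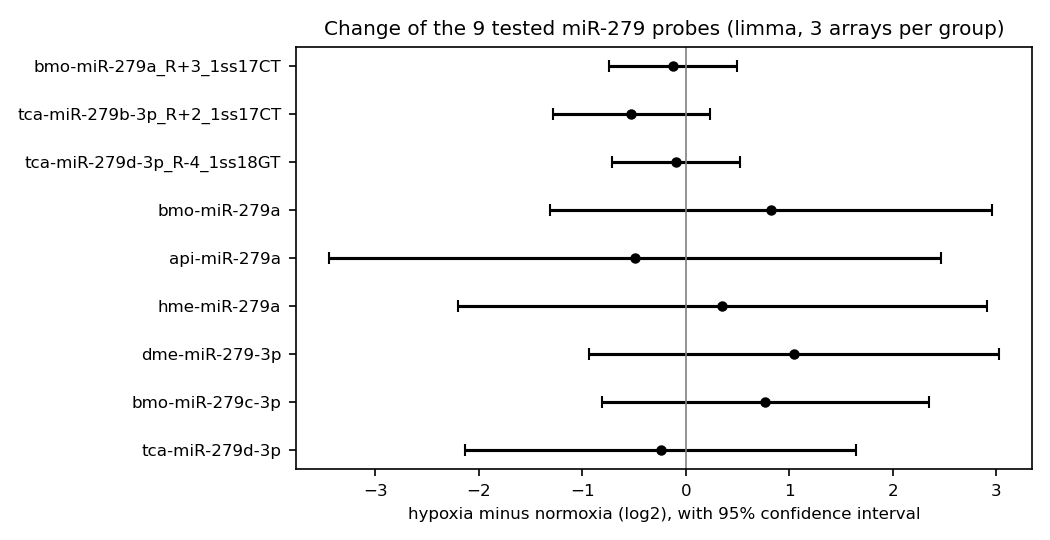
Change of each of the 9 tested miR-279 probes (horizontal axis, hypoxia minus normoxia on the log2 scale, point with 95% confidence interval from limma, 3 arrays per group). Every interval holds 0, and those of the 3 probes with variant suffixes, at the top, are narrower than those of the other 6.

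Of the 3 variant probes, 2 were steady between arrays, with spans of 0.55 and 0.58 (log2), while tca-miR-279b-3p_R+2_1ss17CT spanned 1.21. The probe bmo-miR-279a_R+3_1ss17CT, the brightest member, read 12.89, 12.98 and 12.89 (normalized log2 signal) on normoxia 1, 2 and 3, and 12.62, 12.62 and 13.17 on hypoxia 1, 2 and 3. Hypoxia 3 was the highest of the 6 and the other hypoxia arrays the lowest, so the groups overlapped. Its mean was 12.92 ± 0.05 (SD, n = 3) in normoxia and 12.80 ± 0.32 in hypoxia, a change of -0.12 (95% interval -0.74 to 0.49; limma, adjusted p = 0.949). It was -0.35 without hypoxia 3, -0.056 without hypoxia 1 and -0.023 without hypoxia 2.

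For tca-miR-279d-3p_R-4_1ss18GT the readings were 11.86, 11.88 and 11.62 in normoxia and 11.38, 11.73 and 11.96 in hypoxia. The groups overlapped here too, with hypoxia 1 lowest and hypoxia 3 highest. The change was -0.10 (-0.72 to 0.52; limma, adjusted p = 0.949), and it was 0.018 with 75th percentile scaling, 0.024 with cyclic loess and 0.034 in the authors' values. Without hypoxia 3 it was -0.20, and without hypoxia 1 it was 0.058.

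The 24 nt probe tca-miR-279b-3p_R+2_1ss17CT read 12.98, 13.10 and 12.85 in normoxia and 12.73, 12.73 and 11.89 in hypoxia. Every hypoxia array lay below every normoxia array, as in 10% of all tested probes in either direction. Hypoxia 1 and 2 were close to the lowest normoxia array, and hypoxia 3 stood apart from them. The change was -0.53 (-1.28 to 0.23; limma, adjusted p = 0.870). Without hypoxia 3 it was -0.27.

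These 2 probes of one core sequence moved together except on hypoxia 3. The 24 nt probe minus the 22 nt probe was 0.08, 0.12 and -0.04 (log2) on normoxia 1 to 3 and 0.12 on hypoxia 1 and 2, but -1.27 on hypoxia 3. A difference between probes is not one in abundance, since probes bind with different strength, so what is compared is how that difference varied between arrays.

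The 6 unmodified probes varied widely, and the same arrays were high and low in each. The shortest, bmo-miR-279a at 19 nt, read 8.79, 8.96 and 9.16 in normoxia and 11.11, 10.54 and 7.73 in hypoxia. Hypoxia 1 and 2 lay above every normoxia array and hypoxia 3 below every one. The change was 0.82 (-1.31 to 2.96; limma, adjusted p = 0.940), or 1.79 without hypoxia 3 and 0.28 without hypoxia 1.

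The 21 nt form api-miR-279a gave 10.60, 10.64 and 11.24 in normoxia and 12.41, 11.08 and 7.53 in hypoxia. Its span of 4.88 (log2), or 29.4-fold, between hypoxia 1 and hypoxia 3 was the widest of the 9. The change was -0.49 (-3.44 to 2.46; limma, adjusted p = 0.949), or 0.86 without hypoxia 3, -1.49 without hypoxia 1 and -0.88 without hypoxia 2.

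The 22 nt form hme-miR-279a gave 9.42, 10.94 and 11.34 in normoxia and 12.43, 11.61 and 8.73 in hypoxia. Here normoxia 1 was also low. The change was 0.35 (-2.20 to 2.91; limma, adjusted p = 0.949), or 1.33 without hypoxia 3, and it took the opposite sign without normoxia 1 (-0.22), hypoxia 1 (-0.42) or hypoxia 2 (-0.015).

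The fly probe dme-miR-279-3p, which differs from hme-miR-279a by C20U C21A, read 7.42, 8.07 and 8.05 in normoxia and 10.01, 9.64 and 7.02 in hypoxia. On hypoxia 3 it was below the detection limit. Its change, 1.04 (-0.93 to 3.02; limma, adjusted p = 0.870), was the largest of the 9 and became 2.04 without hypoxia 3 and 0.53 without hypoxia 1.

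The miR-279c probe bmo-miR-279c-3p read 8.97, 8.82 and 8.54 in normoxia and 10.30, 10.28 and 8.05 in hypoxia. The change was 0.77 (-0.81 to 2.35; limma, adjusted p = 0.878), or 1.46 without hypoxia 3 and 0.40 without hypoxia 2. The miR-279d probe tca-miR-279d-3p, which shares its first 21 bases, read 9.01, 8.69 and 8.50 in normoxia and 10.29, 7.74 and 7.42 in hypoxia. Its change was -0.24 (-2.13 to 1.65; limma, adjusted p = 0.949), and 0.18 with cyclic loess scaling. Without hypoxia 1, 2 or 3 it was -0.97, 0.14 and 0.22. The 2 probes were within 0.13 (log2) of each other on normoxia 1, 2 and 3 and hypoxia 1, while tca-miR-279d-3p minus bmo-miR-279c-3p was -2.54 on hypoxia 2 and -0.63 on hypoxia 3.

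**Figure D3:**
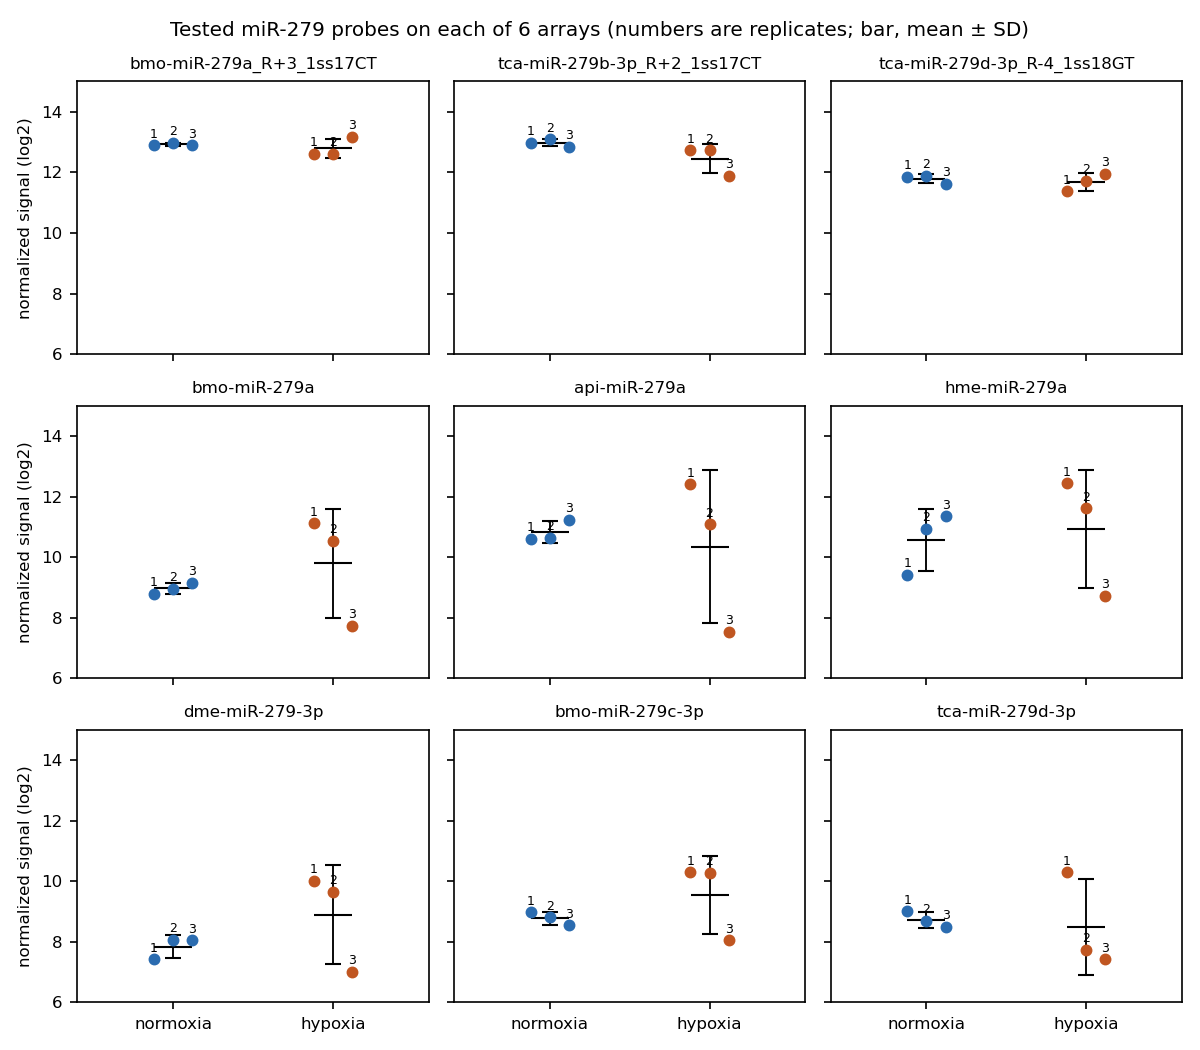
Normalized signal (vertical axis, log2) of the 9 tested miR-279 probes on the 3 normoxia (blue) and 3 hypoxia (orange) arrays, with replicate numbers beside the points and bars for mean ± SD. The 3 variant probes in the top row stay within 1.21 over the 6 arrays, while each of the other 6 is highest on hypoxia 1 and lowest on hypoxia 3.

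All 6 unmodified probes lay above every normoxia array on hypoxia 1 and below every one on hypoxia 3. The miR-279a targets among them are 1 sequence at different lengths, and the c and d targets share their first bases. The 6 are therefore not independent readings. Among all 339 tested probes, 22.7% lay above every normoxia array on hypoxia 1 and 35.7% lay below every one on hypoxia 3. On hypoxia 2, 4 of the 6 were above every normoxia array and 1, tca-miR-279d-3p, was below. Among all 339 tested probes, 83 were above and 113 below on that array. The 3 variant probes lay below every normoxia array on hypoxia 1, as did 134 of all 339. On hypoxia 3, 2 of the variant probes lay above every normoxia array, as did 126 of all 339. The span over the 6 arrays was 2.25 to 4.88 (log2) for the unmodified probes and 0.55 to 1.21 for the variants. The unmodified probes were also dimmer, with mean log2 signals of 8.37 to 10.74, against 11.74 to 12.86 for the variants. Brightness and kind of probe cannot be told apart in these spans. The median span was 1.36 for 220 unmodified tested probes of the whole array and 1.26 for 119 variant ones. Where a variant and the unmodified probe it is named after were both tested, the unmodified probe had the wider span in both miR-279 pairs, and in 22 of 36 pairs (61.1%) outside the family. Whether the family differs from other miRNAs in this was not tested.

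On the hypoxia arrays, values of the added calibration probes ran in the same order as these readings. Probes named 3M had a mean signal, relative to the mean of probes named 3P, of 2.58%, 3.73% and 1.87% on normoxia 1, 2 and 3 and 10.8%, 7.14% and 1.22% on hypoxia 1, 2 and 3. The files do not state what these names stand for. The difference hme-miR-279a minus bmo-miR-279a_R+3_1ss17CT, 2 probes apart by C17U alone, was -3.47, -2.04 and -1.55 (log2) in normoxia and -0.18, -1.01 and -4.44 in hypoxia. Both measures were highest on hypoxia 1, next on hypoxia 2 and lowest on hypoxia 3. Within normoxia the orders differed: normoxia 3 had the lowest calibration value and the highest difference of the 3. With the log2 of that ratio in the model as a covariate, 0 members passed (limma, smallest adjusted p = 0.219), and most changes moved. Those of bmo-miR-279a, dme-miR-279-3p and bmo-miR-279c-3p became 0.048, 0.33 and 0.20, and that of hme-miR-279a became -0.47. Those of api-miR-279a, tca-miR-279d-3p and the b variant became -1.55, -0.75 and -0.75, while the a and d variants came to 0.0075 and -0.00033. The part of hybridisation in these readings was not tested.

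**Figure D4:**
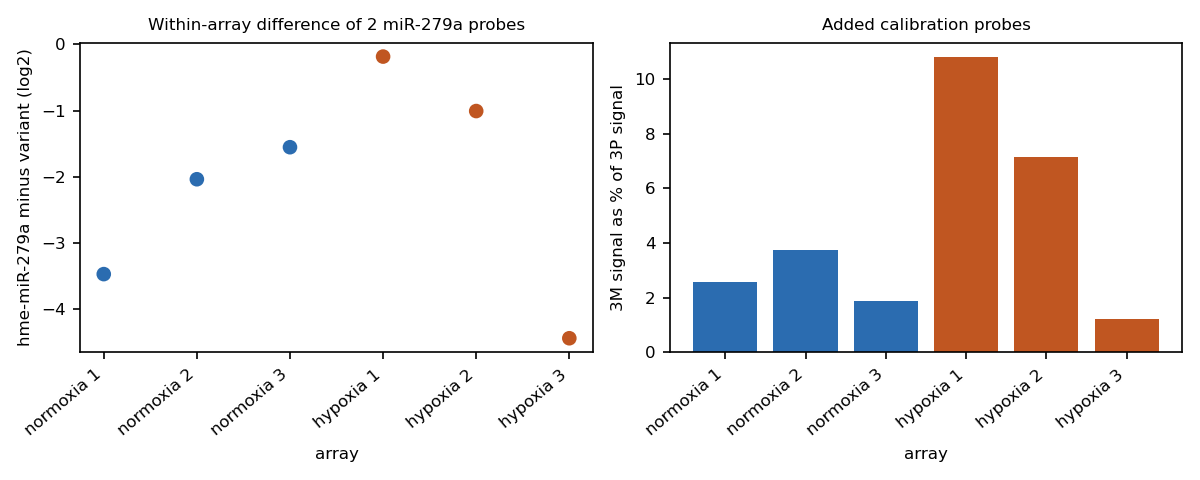
Left, the within-array difference between hme-miR-279a and its C17U variant (log2) on each array; right, the signal of the 3M calibration probes as a percent of the 3P probes (normoxia blue, hypoxia orange). The left panel runs from -4.44 on hypoxia 3 to -0.18 on hypoxia 1, and the right from 1.22% to 10.8% on the same arrays.

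The letters were compared through 1 probe each, the tested one with the highest mean signal. This choice gave variant probes for a, b and d and unmodified probes for c and for no letter, so letter and kind of probe cannot be told apart in it. Within letter a alone the changes of the 4 tested probes ran from -0.49 to 0.82. The probe chosen for b, tca-miR-279b-3p_R+2_1ss17CT, holds the 22 bases of bmo-miR-279a_R+3_1ss17CT, chosen for a, and 2 more. Letter a against b thus compared 1 core sequence at 2 lengths. The other pairs with b did not compare a distinct miR-279b core sequence either. For the 10 pairs of letters the smallest possible p was 0.1 (exact permutation test over the 6 arrays, two-sided). After adjustment over the pairs the smallest exact permutation p was 0.667. No difference in change could pass the threshold, so the test cannot decide whether letters differed. The widest difference in change was between tca-miR-279b-3p_R+2_1ss17CT and dme-miR-279-3p, at -1.57 (log2, exact permutation p = 0.2). Between the b variant and bmo-miR-279c-3p the within-array difference was 4.20 ± 0.17 (SD, n = 3) in normoxia and 2.91 ± 0.81 in hypoxia, with no overlap, and the difference in change was -1.29 (exact permutation p = 0.1, adjusted p = 0.667). The a and d variants differed least, by -0.025 (exact permutation p = 0.8). Their within-array difference stayed between 0.89 and 1.27 on all 6 arrays, although their targets differ at 4 bases (C13U U17C A18U C21U). A p that misses the threshold does not show that the letters changed alike.

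Other miRNAs carry the same seed. Outside the family 6 probes held GACUAGA at bases 2 to 8, of which 4 were miR-286 probes, a miRNA of early fly embryos, and the others bmo-miR-3365 and aae-miR-2945-3p. None of them entered the test, and 4 were detected on 1 or 2 arrays. The strongest reading, for aae-miR-286b, was 640 above background on hypoxia 1. It read 8.95 to 46.6 on the other 5 arrays and passed the limit again on hypoxia 2 alone.

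The probes most like the brightest member in pattern were found by centring each tested probe on its mean over the 6 arrays and taking the root mean square difference, 1 probe per miRNA outside the family. For bmo-miR-279a_R+3_1ss17CT these were dpu-miR-965 at 0.083 (log2), api-miR-87a at 0.088, hme-let-7 at 0.10, tur-miR-305-5p at 0.10 and bmo-miR-281-3p at 0.11. The d variant lay at 0.13 from it and the b variant at 0.51. The 6 unmodified members lay farther off, at 1.04 to 1.66. Probes were centred but not scaled, so a wide span alone puts a probe far from this steady one.

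The same measure was taken for hme-miR-279a, a probe chosen after its values were seen. The nearest probe of another miRNA was isc-miR-12_R+2_1ss3AG at 0.27, which read 9.36, 10.39 and 10.92 in normoxia and 11.45, 11.24 and 8.16 in hypoxia. The next were dme-miR-2c-3p at 0.44 and dme-miR-305-5p at 0.48. The other 5 unmodified members lay at 0.55 to 1.09 from it. The farthest, tca-miR-279d-3p, was about as far from the brightest variant, at 1.04.

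Of the miRNAs known from the sensory nervous system and the daily clock of flies, the settings in which miR-279 was studied, 70 of 179 probes were tested (miR-7, miR-9, miR-263, bantam, let-7, miR-276 and miR-92; none of miR-124 or miR-210). Of these, 0 passed upward and 0 downward (limma), 23 lay above 0 and 47 below, and the median change was -0.13. Among all 339 tested probes, 0% passed, 41.9% lay above 0 and 58.1% below, and the median change was -0.09. By miRNA the medians ran from -0.54 for miR-92, with 9 of 11 probes below 0, to 0.36 for miR-9, a miRNA of sensory organ precursors in flies, with 10 of 12 above 0. Between these lay miR-263, which guards sensory bristle cells in flies, at -0.23 over 19 probes, let-7, a timing miRNA, at -0.17 over 6, miR-276 at -0.044 over 15 and miR-7 at -0.0088 over 3. Bantam, a growth regulator, had a median of 0.0036 over 4 probes that ran from -1.59 (api-bantam) to 1.51 (aae-bantam-3p).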

How the data were processed

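Per the labels, total RNA carried a Cy3 label and the LC Sciences arrays had 1 colour. Scanner tables were deposited with the median intensity of each spot, linear and without background subtraction, since empty spots read well above 0. A second deposited table gives intensities that the authors had processed further, by a method not given in the sources used; log2 of these values plus 32 was an alternative.

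Each array had 1 spot per miRNA probe and 1130 empty spots. Background was the median of the 20 nearest empty spots. Correction was by normexp (offset 50), so changes of dim probes are understated. After removal of control spots came quantile normalization and log2. Sample titles gave the groups. The test was limma 3.58.1 in R 4.3.3 (lmFit, eBayes) on the 339 probes that every array of either group detected, with a Benjamini-Hochberg threshold of 0.05. Letters were compared by exact permutation. The procedure was run on simulated arrays with planted changes larger than those of the members and a spread set below the observed average. That run does not measure its power in these data. All tested members are named, and untested ones where detected on at least 3 arrays; those named beyond this were chosen after their values were seen. Members, lists and the calibration covariate were chosen with earlier results of these data known. Alternatives covered background, scaling, filter, spread model, array weights, a replicate block, left-out arrays and detection limits. Figures used matplotlib 3.10.9.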

Additional observations from a re-analysis of the deposited data

How the results depend on the processing

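The count of members past the threshold was 0 in every alternative run, with a smallest adjusted p from 0.0756 (limma, without hypoxia 3) to 1. Signs of single changes turned with scaling: tca-miR-279d-3p was at 0.0052 and tca-miR-279d-3p_R-4_1ss18GT at 0.018 with the 75th percentile, 0.18 and 0.024 with cyclic loess, the latter at 0.034 in the authors' values, and hme-miR-279a at -0.016 with no scaling. Array weights put api-miR-279a at 0.39, and the calibration covariate put hme-miR-279a at -0.47 and bmo-miR-279a_R+3_1ss17CT at 0.0075. Leaving out single arrays gave -1.49 to 0.86 for api-miR-279a, -0.42 to 1.33 for hme-miR-279a, -0.97 to 0.22 for tca-miR-279d-3p and -0.20 to 0.058 for its variant, and the median change ran from -0.12 to 0.86, the last without hypoxia 3. For differences in change between letters it gave -0.081 to 0.63 (a minus b), -0.15 to 0.091 (a minus d) and -0.58 to 0.012 (c minus no letter). At a detection limit of 5 SD, 5 members were detected on all 3 hypoxia arrays, against 8. The cause was not tested.

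Same-numbered samples of the groups did not deviate together (correlations -0.25, -0.27 and -0.058). These few correlations cannot settle whether the numbers pair samples, and the labels do not say what the numbers stand for. With the replicate number as a block 0 members passed (limma, smallest adjusted p = 0.987). Signal over background limits the 30 untested members.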
